A study of Tupaia belangeri with 8 samples.

Results

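Of 8 small RNA libraries of tree shrew primary neurons, 3 held little miR-21-5p and 5 held much of it, and this division cut across the treatment labels. The libraries were chosen by the deposited TPM of miR-21-5p, after these values had been seen. A library under 100000 TPM was called low and a library over 300000 TPM was called high. PBS 1, PBS 3 and METH 3 were low, and PBS 2, PBS 4, METH 1, METH 2 and METH 4 were high. The library just inside the lower limit was PBS 1 at 75285 TPM, and the nearest library outside it was PBS 2 at 334893 TPM. What follows describes how the other miRNAs differed between these libraries, with miR-21-5p left out of the comparison.

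The cells were isolated from neonatal tree shrews (Tupaia belangeri) as cells with dopaminergic neuronal activity and grown in serum-containing Neurobasal-A (15% fetal bovine serum, with B-27), per the labels and the series design text. The 4 METH libraries came from wells given 5 µl of a methamphetamine stock, stated as 100 mmol, in 995 µl of medium, and the 4 PBS libraries from wells given 1000 µl of medium alone after a PBS rinse. All cells were collected after 24 h. The study asked what METH, a psychostimulant, does to these neurons. The labels leave unsaid whether libraries of a group stem from separate animals or cultures, so p-values measure the spread among these samples only, and that spread may be technical. The libraries are bulk samples of a culture, in which fewer cells of a type and less of an RNA per cell cannot be told apart.

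miRNAs are short RNAs cut from hairpin precursors that guide Argonaute proteins to messenger RNAs, mostly by pairing through their seed near the 5′ end. miRNAs with one seed form a family, and miRNAs that lie close together are often cut from one primary transcript. miR-21-5p is cut from a single-gene precursor and is abundant in glia, fibroblasts and many cultured cells, where injury, inflammation and growth are known to raise it. It is not a marker of resting neurons.

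miR-21-5p itself held 7.53%, 6.95% and 5.26% of all counts in PBS 1, PBS 3 and METH 3. In PBS 2, PBS 4, METH 1, METH 2 and METH 4 it held 33.5%, 49.3%, 39.2%, 37.9% and 47.9%. These shares set the classes and carry no test. Each share had a 95% Wilson interval that reached at most 0.12 percentage points to either side, which covers counting error only, since the protocols mention no molecular identifiers. Both treatments were found in both classes: 2 of 4 PBS and 1 of 4 METH libraries were low (Fisher's exact test, two-sided, p = 1; Benjamini-Hochberg adjusted over 3 tests computed on the classes, 1).

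Total counts ran from 339243 to 526031 in the low libraries and from 642982 to 7334789 in the high ones, without overlap. The mean log2 total was lower by 2.10 in the low libraries, given as a description, since the total contains the miR-21-5p reads that set the classes. Outside miR-21-5p the totals overlapped, at 321397 to 486429 and 390981 to 3718501 (mean log2 difference −1.41, exact permutation test, two-sided, p = 0.143, adjusted over the 3 tests 0.214). PBS 4 and METH 4 held 7334789 and 6702946 counts, more than any other library, and without them the difference in the total was −0.77. No pair of libraries was identical or within sampling noise of each other.

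**Figure D1:**
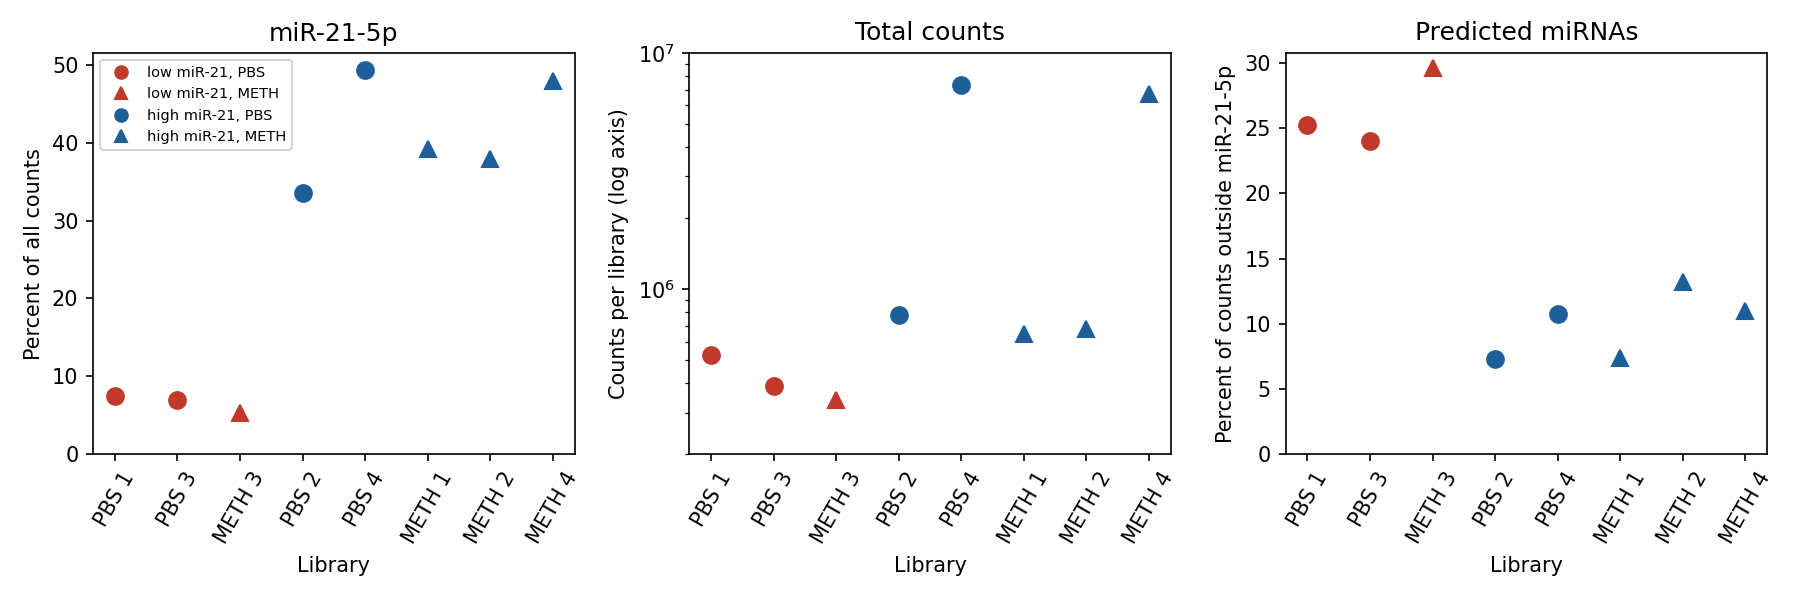
Share of miR-21-5p in all counts (percent), total counts per library (log axis) and share of predicted miRNAs in the counts outside miR-21-5p (percent). Points are single libraries, red for low and blue for high miR-21, circles for PBS and triangles for METH. The 3 low libraries lie under 7.53% for miR-21-5p and from 24.0% for predicted miRNAs, and the 5 high ones from 33.5% and up to 13.2%.

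Without miR-21-5p, the remaining miRNAs still differed widely between the classes. The table lists 384 miRNAs, 159 with a known name and 225 predicted ones that carry a number. 179 of them, 119 known and 60 predicted, passed a filter on low counts and held at least 99.8% of the counts outside miR-21-5p in every library. Levels below are normalised CPM, that is counts scaled to a common total outside miR-21-5p in CPM after TMM scaling, and differences are fitted log2 differences, low minus high, with treatment as a second term. 47 of the 179 (26.3%) were lower in every low library than in any high library and at least 2-fold lower by the fit, and 31 (17.3%) were higher in the same way. The groups overlapped for 94 of 179, and the rest did not overlap but differed by less than 2-fold. By edgeR's adjusted p under 0.05, 88 of 179 (49.2%) differed, a count that only describes the division since measured values chose it. Among those compared, 34 of the 47 lower ones were at least 4-fold lower and 18 at least 8-fold, against 10 and 2 of the 31 higher ones. The filter did not treat both sides alike. A miRNA scarce in the low class could pass through some of the high libraries, while one scarce in the high class had to pass in every low library. miR-1247-5p, at 420, 14.8 and 421 normalised CPM in the low libraries and at most 20.2 in the high ones, was left out. The number on each side depended on the scaling. With total counts in place of TMM factors, 43 were higher and 37 lower, and the differences of the single miRNAs moved up by a median of 0.20. Upper quartile factors gave 39 and 40, with a median move of 0.25. All 78 kept their sign under both and under DESeq2 size factors. Of the 78, 59 also stayed non-overlapping and at least 2-fold apart under every other scaling and with any 1 library left out, wherever they passed the filter, and the exceptions among the named miRNAs are given beside them.

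**Figure D2:**
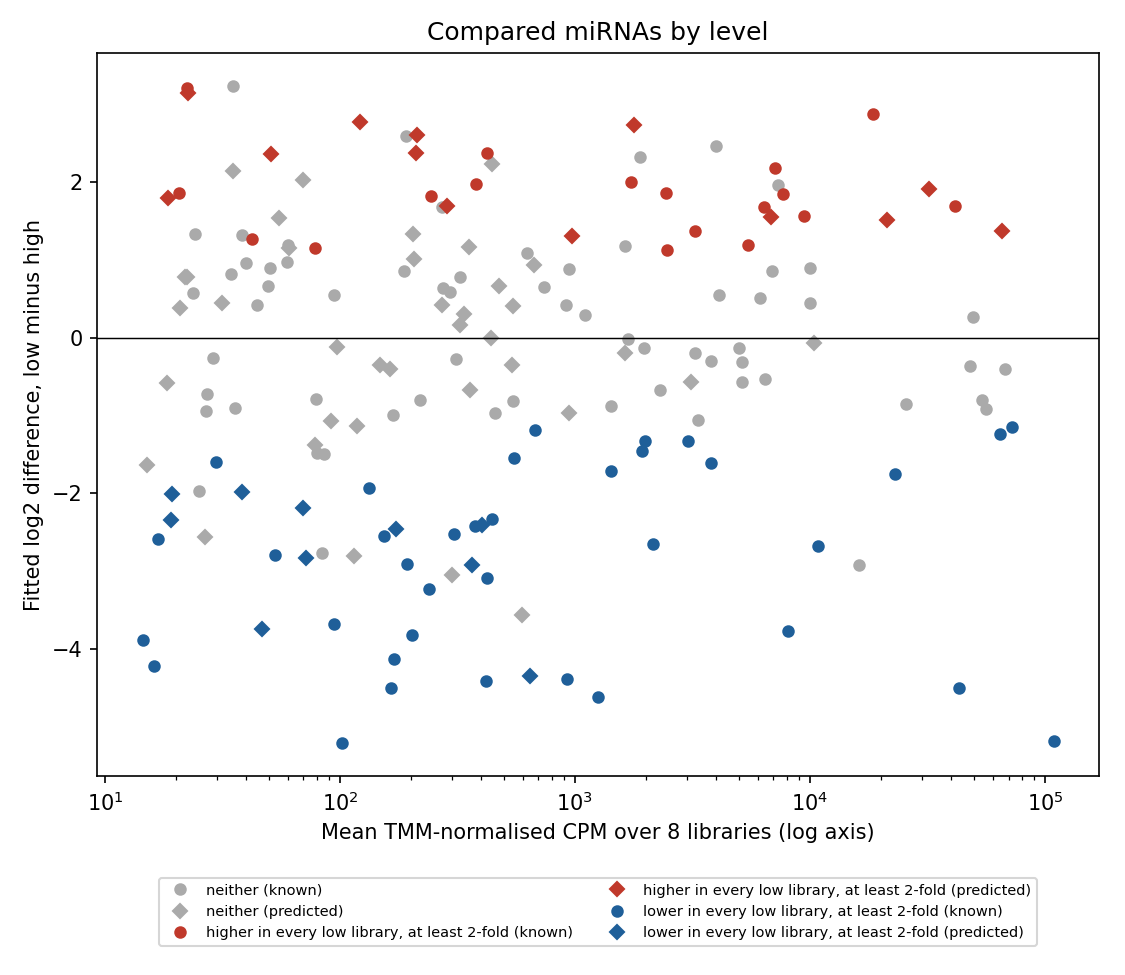
Fitted log2 difference, low minus high, against mean normalised CPM (log axis) for the compared miRNAs except miR-32-5p, which had 0 reads in the low libraries. Circles are known and diamonds predicted miRNAs. Red points were higher and blue points lower in every low library by at least 2-fold. Blue points reach −5.21, and the highest red point lies at 3.20.

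Among the miRNAs that were lower, miR-148a-3p made up the largest part of the counts. This miRNA, known to target the DNA methyltransferase DNMT1, was at 6876, 7723 and 2913 normalised CPM in the low libraries PBS 1, PBS 3 and METH 3. It was at 333534, 94545, 259884, 70463 and 95537 in PBS 2, PBS 4, METH 1, METH 2 and METH 4, an order kept for all values of the high libraries below. Every high library lay far above every low one, and the fitted difference was −5.17 (SE 0.68). Its share of the counts outside miR-21-5p was 0.26% to 0.963% in the low libraries and 7.86% to 20.9% in the high ones. It was the most abundant miRNA outside miR-21-5p in 4 of the 5 high libraries, and let-7f-5p was in METH 2.

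miR-143-3p, a miRNA of smooth muscle cells and fibroblasts, was at 2152, 8693 and 1476 normalised CPM in the low libraries and at 126389, 69597, 39047, 40094 and 58714 in the high ones. The difference was −4.50 (SE 0.59), and the groups did not overlap. miR-101, known to target the chromatin enzyme EZH2, was at 106, 76.5 and 59.2 and at 1621, 1960, 2342, 1339 and 2504. All low libraries lay close together and far under all high ones, with a difference of −4.61 (SE 0.52).

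miR-32-5p had 0 reads in each low library and 18, 665, 31, 39 and 798 reads in the high ones, where it averaged 119 ± 56.4 normalised CPM (SD, n = 5). A count of 3 is about the 95% upper limit for a count of 0, from counting error alone. Over the low libraries together it is 2.18 normalised CPM. By that limit, which leaves out the spread between libraries, miR-32-5p was at least 54.3-fold lower. miR-539-3p, of the imprinted DLK1-DIO3 miRNA cluster, had 2, 2 and 1 reads in the low libraries and 26, 686, 78, 35 and 937 in the high ones. Its difference was −5.21 (SE 0.80) and rests on those 5 reads.

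The 10 with the largest negative and the 10 with the largest positive difference were taken from the miRNAs whose classes did not overlap and that averaged at least 100 normalised CPM. The other miRNAs among the 10 lowest were let-7a-3p, the passenger arm of let-7a, at −4.49 (SE 0.66), miR-140-5p, known from cartilage, at −4.40 (SE 0.68), miR-9771m at −4.38 (SE 0.52), the predicted novel_42 at −4.35 (SE 1.15), miR-374a-5p at −4.13 (SE 0.66) and miR-542-3p at −3.81 (SE 0.64). Within the low libraries novel_42 ranged from 10.4 normalised CPM in METH 3 to 202 in PBS 3, and without PBS 3 its difference was −6.40. The other 5 varied by less between the low libraries, as the plot of the named miRNAs by library shows. In those libraries let-7a-3p had 6, 9 and 2 reads, miR-374a-5p 11, 8 and 2 and miR-542-3p 21, 10 and 3. The sizes of these differences rest on those few reads.

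Among the miRNAs that were higher, miR-92a-3p of the growth-promoting miR-17-92 cluster had the largest difference of those that averaged at least 100 normalised CPM. It was at 20185, 42708 and 57470 normalised CPM in the low libraries and at 5495, 6164, 6378, 5823 and 4273 in the high ones. The 5 high libraries lay close together, all under the lowest low library, and the difference was 2.86 (SE 0.37). miR-125a-5p, a mammalian relative of the worm miRNA lin-4, was at 9455, 12668 and 18921 and at 3226, 2592, 3103, 4366 and 2672, with a difference of 2.17 (SE 0.33). Its relative miR-125b-5p, which shares the seed, was at 53017, 62649 and 100157 and at 18007, 25683, 23979, 30476 and 18120, with 1.69 (SE 0.34). All low libraries lay above all high ones for both.

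miR-15b-5p, known to target BCL2 and cell cycle genes, was at 383, 780.2 and 901 in the low libraries and 151, 158, 192, 291 and 166 in the high ones (1.97, SE 0.44). miR-455-3p differed by 2.37 (SE 0.46) and miR-328 by 2.00 (SE 0.38). The other 5 of these 10 were predicted: novel_117 at 2.76 (SE 0.48), novel_27 at 2.73 (SE 0.44), novel_28 at 2.60 (SE 0.54), novel_58 at 2.37 (SE 0.45) and novel_6 at 1.91 (SE 0.36). Some miRNAs with overlapping classes had differences as large, such as miR-504 at 2.58 (SE 0.67) and miR-129-5p at 2.45 (SE 0.89). METH 3 had the highest value of the low libraries in 29 of the 31 higher miRNAs, PBS 3 in 2 and PBS 1 in 0. The lowest values of the 47 lower ones were spread, with 19 in PBS 1, 14 in PBS 3 and 14 in METH 3.

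**Figure D3:**
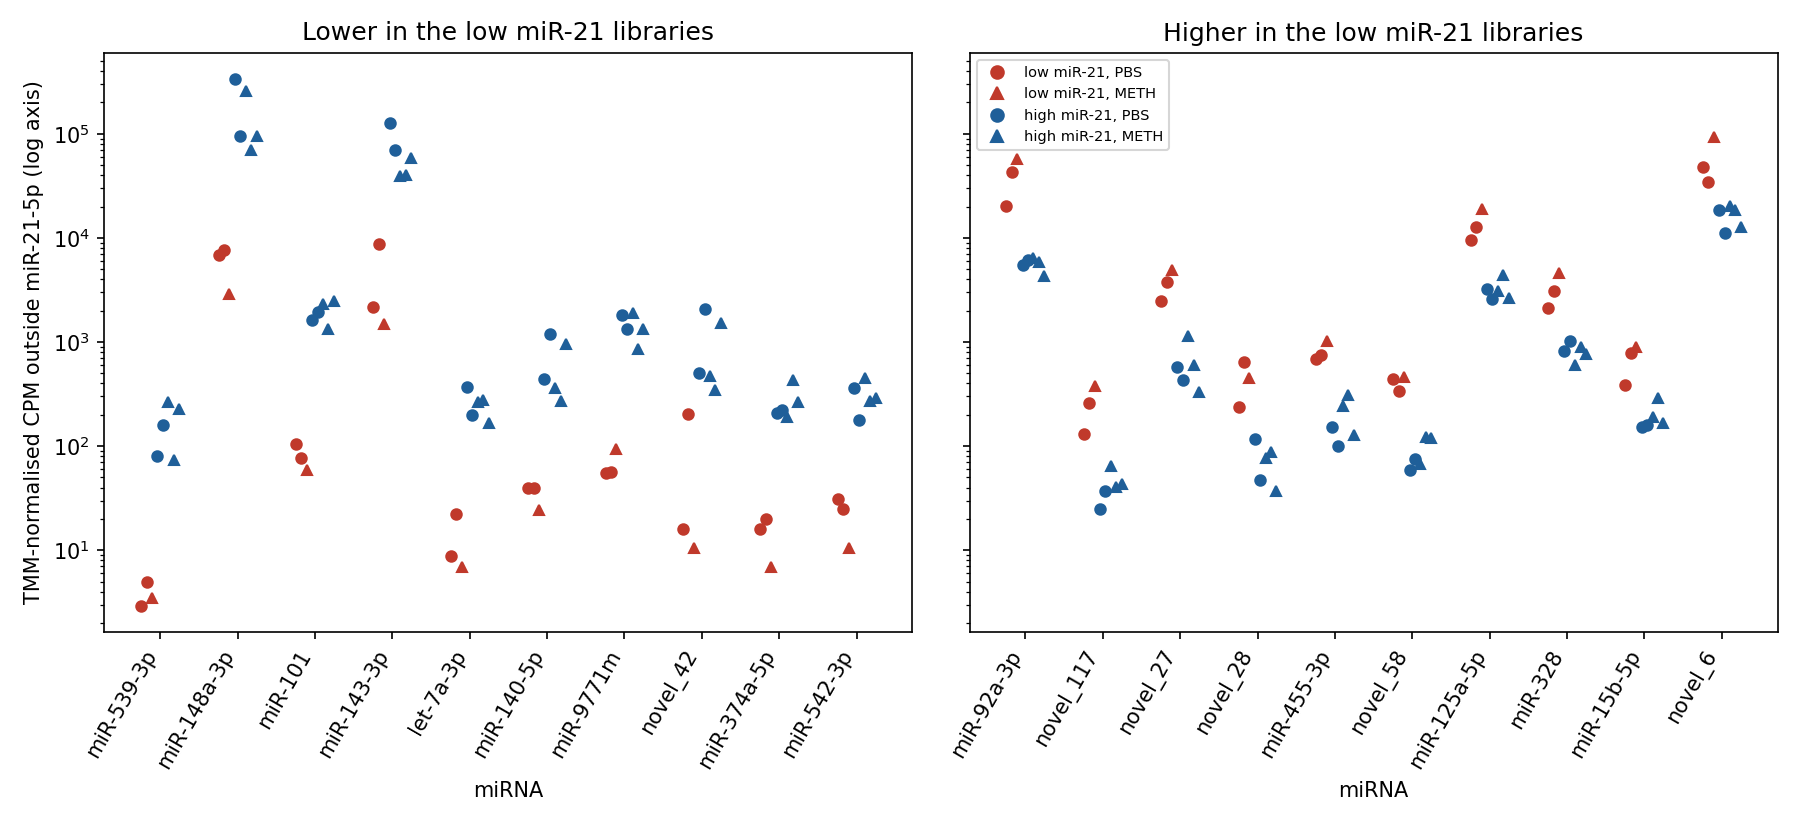
Normalised CPM (log axis) by library of the 10 miRNAs with the largest negative (left) and the 10 with the largest positive (right) difference, taken from miRNAs with at least 100 normalised CPM on average and no overlap between the classes. Red points are low and blue points high miR-21 libraries, circles PBS and triangles METH. The choice of miRNAs fixes that red and blue points do not overlap. The red points span 1476 to 8693 for miR-143-3p and 20185 to 57470 for miR-92a-3p.

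Predicted miRNAs took a larger part of the low libraries. They held 25.3%, 24.0% and 29.6% of the counts outside miR-21-5p in PBS 1, PBS 3 and METH 3, and 7.28%, 10.7%, 7.36%, 13.2% and 11.0% in the high libraries. Most of this came from 3 of them. novel_2 was the most abundant miRNA of all in each low library, above miR-21-5p, at 9.52%, 10.9% and 11.9% of all counts. It was at 73503, 104224 and 139917 normalised CPM in the low libraries and 46674, 38283, 34705, 52977 and 36982 in the high ones (1.37, SE 0.34). novel_6 was at 47878, 34694 and 92651 and 18692, 11041, 20217, 18420 and 12684. With novel_9 these 3 held 18.4% to 25.6% of the counts outside miR-21-5p in the low libraries and 4.87% to 9.85% in the high ones. Of the 60 predicted miRNAs compared, 13 were higher and 10 lower, with a median difference of 0.23, and of the 119 known ones 18 were higher and 37 lower, with a median of −0.37. The files give predicted miRNAs no sequence or position. novel_146, which the series title names, had 6, 23 and 1 reads in PBS 1, PBS 3 and METH 3 and 6, 41, 1, 3 and 27 in the high libraries. It stayed under the filter, and its values of 3.48 to 56.8 and 3.37 to 18.5 normalised CPM overlapped.

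The most abundant miRNAs outside these did not all take part. let-7f-5p and let-7i-5p were lower, at −1.24 (SE 0.39) and −1.15 (SE 0.44). let-7f-5p was at 25106, 53904 and 31223 normalised CPM in the low libraries and 122259, 70771, 74365, 72277 and 65797 in the high ones. let-7f-5p was at −0.98 with total counts as the scaling, and let-7i-5p at −0.79 with total counts, −0.86 with upper quartile factors and −0.66 without PBS 2, all under 2-fold. miR-99a-5p (−0.40, SE 0.48), miR-100-5p (−0.92, SE 0.43), let-7g-5p (−0.37, SE 0.35) and miR-9-5p (0.27, SE 0.60) overlapped between the classes. miR-26a-5p lay lower in every low library, by less than 2-fold (−0.80, SE 0.35). The value for miR-99a-5p turned to 0.01 with total counts as the scaling and stayed below 0 with the others tried.

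The low libraries were not simply more or less diverse. The effective number of miRNAs outside miR-21-5p, which is the exponential of their Shannon entropy, was 31.9, 35.0 and 30.8 in PBS 1, PBS 3 and METH 3. It ran from 20.9 to 33.4 in the high libraries, with overlap. With miR-21-5p kept in, the ranges were 31.6 to 35.2 and 11.7 to 17.0. That gap follows largely from the rule, since the row that set the classes is then part of the measure. Thinned to 321397 reads outside miR-21-5p, 250 to 259 miRNAs were seen in the low libraries and 244 to 263 in the high ones.

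Members of the miR-92a-3p seed family and of the let-7 list differed in opposite directions. The only lower member of the first, miR-32-5p, had 0 reads in each low library and passed the filter through high libraries. Members with the let-7 seed that were counted as lower were not so counted under every scaling. Of the other seed families below, only the miR-148 and miR-29 families had more than a single member counted as lower or higher, and these were all lower. The miR-15, miR-30 and miR-181 families had a single such member each, which cannot show whether members lay on the same side. In the miR-148 family, miR-152 was at 665, 2481 and 345 normalised CPM in the low libraries and 10299, 14519, 7387, 9300 and 19329 in the high ones (−3.77, SE 0.71). miR-148b-3p was at 5999, 5567 and 10193 and 3958, 5588, 5042, 5516 and 7180 (0.50, SE 0.33), with overlap. The low libraries were thus far apart from the high ones in 2 of the 3 members. In the seed family of miR-92a-3p, miR-25-3p was higher (1.19, SE 0.35), miR-363-3p overlapped (−0.14, SE 0.96, and above 0 with the 3 other scalings of counts outside miR-21-5p), and miR-32-5p was the one with 0 reads in the low libraries.

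Of the 7 let-7 list members compared, 1 was higher and 4 lower (median −1.24), against 17.3% and 26.3% of all miRNAs compared. One of the 4 is let-7a-3p, which lacks the let-7 seed. let-7e-5p was at 9602, 14747 and 17185 normalised CPM in the low libraries and 4217, 3689, 3601, 4404 and 3769 in the high ones (1.85, SE 0.32), above all of them. miR-98-5p (−1.33, SE 0.52), let-7f-5p, let-7i-5p and let-7a-3p were lower, and let-7a-5p (−1.49, SE 0.59) overlapped. miR-98-5p overlapped too with total counts as the scaling. With that scaling none of let-7f-5p, let-7i-5p and miR-98-5p was counted as lower, while let-7e-5p was still higher. let-7 sequences differ by few bases, so the authors' counting may have split their reads, and these values are uncertain. In the miR-15 family miR-15b-5p was higher, while miR-15a-5p (−0.90, SE 0.60) and miR-503 (1.31, SE 0.61) overlapped. Both miR-29 members were lower, miR-29b-3p by more (−3.68, SE 0.65) than miR-29a-3p (−1.33, SE 0.42), which overlapped with upper quartile factors and without PBS 4. The value of miR-29b-3p rests on 4, 5 and 4 reads in the low libraries. Of the miR-30 family, which also holds near-identical members, miR-30b-5p was lower (−1.18, SE 0.47), miR-30c-5p lay lower by less than 2-fold (−0.53, SE 0.36) and miR-30a-5p overlapped (−0.58, SE 0.39). miR-30b-5p was at −0.95 with upper quartile factors, −0.79 without METH 3 and 0.10 without METH 3 and both libraries numbered 4, and it overlapped without METH 2 and with total counts. In the miR-181 family miR-181b-5p was higher (1.37, SE 0.33), miR-181d lay higher by less than 2-fold (0.88, SE 0.38) and miR-181c-5p overlapped (0.82, SE 0.53). miR-181a-5p also overlapped, at 15146, 5345 and 19301 normalised CPM in the low libraries and 1769, 4110, 3887, 3619 and 5485 in the high ones.

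Neighbours on the genome differed from each other about as often as other miRNAs did. In the RefSeq annotation of the Chinese tree shrew, the miRNAs compared formed 16 groups of consecutive miRNA genes each starting within 10000 bases of the next, with 28 pairs. That table names no chromosome or scaffold, so neighbours were read from row order and starts alone. In 16 of the 28 pairs, the ratio of the partners did not overlap between low and high libraries (57.1%), near the 50.5% over all 7021 pairs of known miRNAs compared. This ratio needs no scaling between libraries. In 8 pairs both partners were among the 78, in the same direction in 6 and in opposite directions in 2 (25%, against 44.8% of all pairs with both partners among the 78). The first opposite pair was in the miR-17-92 cluster, where miR-92a-3p was higher and miR-19b-3p lower. miR-19b-3p was at 42.6, 24.7 and 20.9 normalised CPM in the low libraries and 191, 130.3, 444, 537 and 158 in the high ones (−2.91, SE 0.70). Its low values rest on 29, 10 and 6 reads. miR-17-5p (0.29, SE 0.43) and miR-20a-5p (−0.88, SE 0.41) of that cluster had differences between theirs. miR-17-5p overlapped, and miR-20a-5p lay lower in every low library by less than 2-fold. miR-19b and miR-92a each have 2 loci in the annotation, so part of their reads may come from the other cluster.

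The second opposite pair was miR-191-5p, at 9953, 18147 and 19506 normalised CPM in the low libraries and 4427, 6157, 5984, 6404 and 4824 in the high ones (1.56, SE 0.34), and miR-425-5p, at 793, 1015 and 985 and 4473, 1070, 3699, 2365 and 1031 (−1.46, SE 0.56). miR-425-5p was at −0.79 without PBS 2, under 2-fold, and overlapped with upper quartile factors. Each has 1 locus there. In another group, miR-542-3p (−3.81, SE 0.64) and miR-450a-5p (−1.54, SE 0.56) were lower and miR-503 overlapped. Other neighbours stayed close: miR-25-3p and miR-93-5p (1.19, SE 0.35 and 1.13, SE 0.34), and let-7e-5p and miR-125a-5p (1.85, SE 0.32 and 2.17, SE 0.33), were all higher. miR-25-3p was at 0.84 without METH 3 and miR-93-5p at 0.96 without PBS 3, both under 2-fold.

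Of the 12 DLK1-DIO3 miRNAs in the table, out of 45 listed, 8 were compared, 5 were lower and 0 higher (median −2.53), against 26.3% lower, 17.3% higher and a median of −0.20 for all 179. miR-369-3p (−3.22, SE 0.80), miR-381-3p (−3.08, SE 0.63), miR-656 (−2.54, SE 0.54) and miR-411-5p (−2.51, SE 0.67) were lower beside miR-539-3p, and miR-411-5p overlapped with upper quartile factors. miR-127-3p, miR-409-3p and miR-432-5p overlapped at 0.86 (SE 0.43), 0.42 (SE 0.44) and 0.86 (SE 0.50). Lower members were scarce in PBS 1, PBS 3 and METH 3, with 21, 11 and 15 reads of miR-369-3p and 20, 11 and 14 of miR-656. The list summed to 8192 to 15239 normalised CPM in the low and 4109 to 11475 in the high libraries, with overlap. miR-127-3p held the larger part of that sum in each library, so the sum was not lower in the low libraries.

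Both arms were in the table for 3 hairpins. The arm ratio of miR-1306 overlapped between the classes, at 0.42 to 1.09 and −1.35 to 2.24, and miR-188 had as few as 3 reads of both arms in a library. The log2 ratio of let-7a-5p to let-7a-3p reads was 1.51, 1.68 and 1.93 in the low libraries and −0.98, −1.24, −1.29, −1.40 and −1.24 in the high ones. The 5p arm was the more frequent in every low library and the 3p arm in every high one, from at least 11 reads of both arms together. As for the other let-7 values, reads of let-7a-5p may have been counted under near-identical members.

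**Figure D4:**
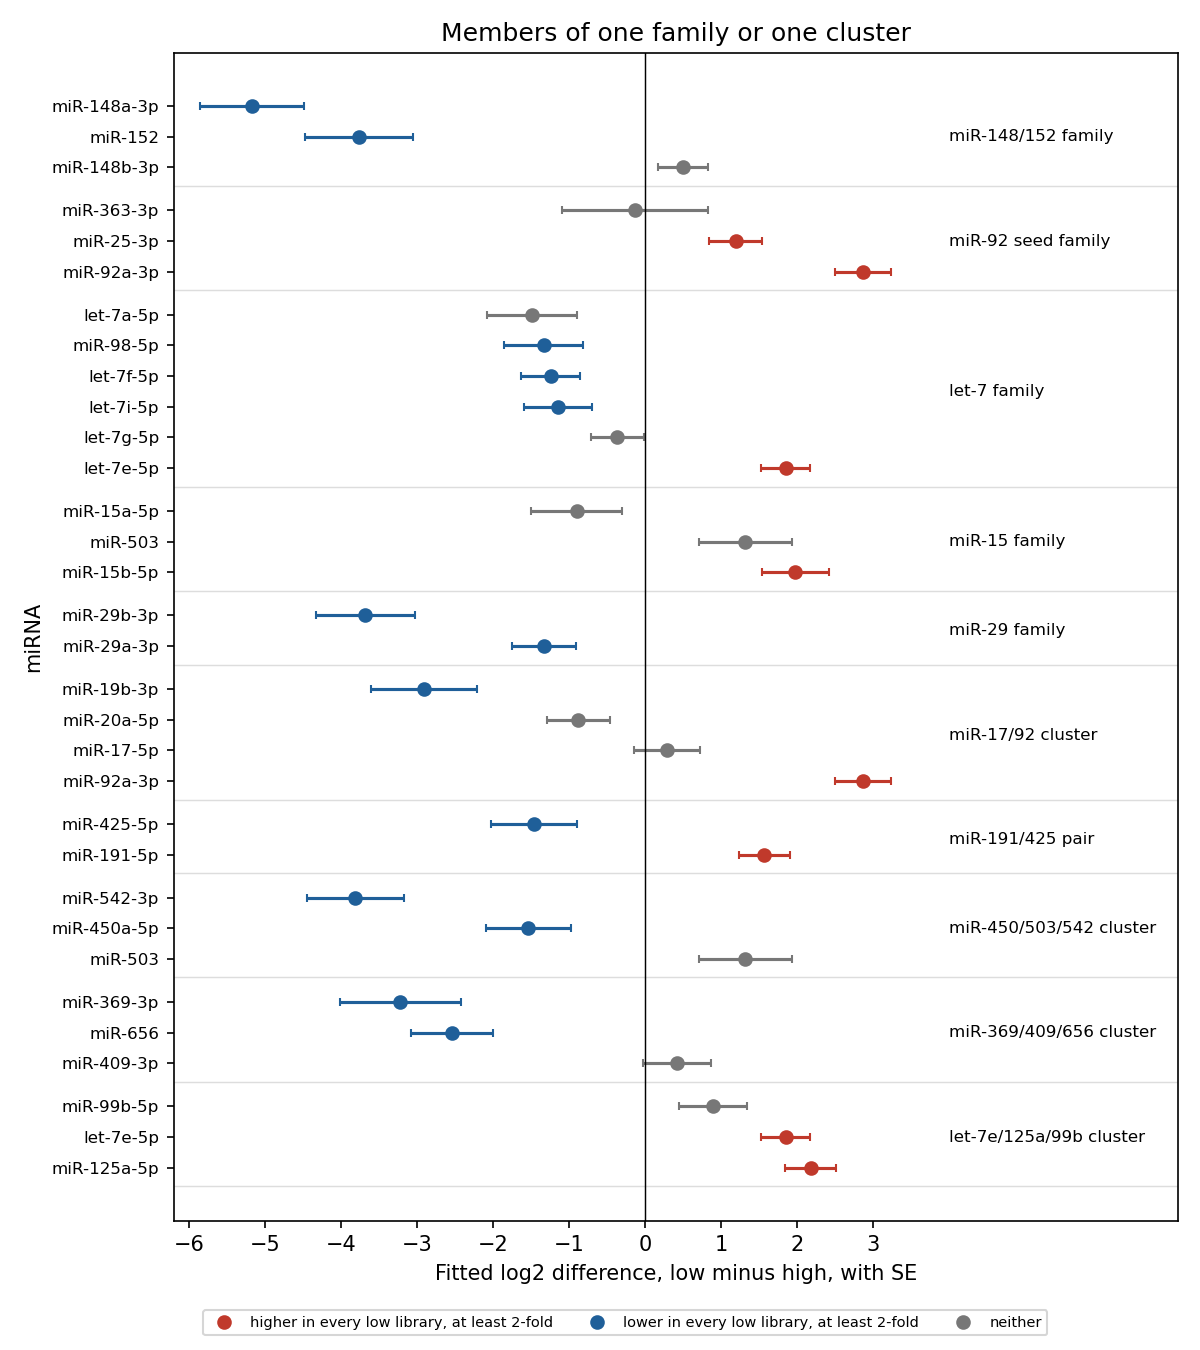
Fitted log2 difference, low minus high, with its standard error, for members of 5 seed families (top) and 5 groups of neighbouring miRNAs (bottom). Red points were higher and blue points lower in every low library by at least 2-fold, and grey points neither. Most of the groups drawn hold points on both sides of 0, while the let-7e group at the bottom lies between 0.89 and 2.17. The groups were picked for display, so this does not show how common such groups are. The miR-30 and miR-181 families, each with all members compared on the same side of 0, are not drawn, nor are the other neighbours.

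Marker miRNAs of cell types did not divide the libraries in one way. Of 11 neuron-enriched miRNAs listed, 5 were in the table and compared, 0 were higher and 1 was lower, near the 17.3% and 26.3% of all miRNAs compared (median −0.20, which lay above 0 with upper quartile factors and total counts). miR-218-5p, known from motor neurons, was the lower one (−2.65, SE 0.47). miR-9-5p, which acts in neurogenesis, was at 64150, 11486 and 84921 normalised CPM in the low and at 54287, 26578, 96601, 32890 and 25908 in the high libraries. miR-7-5p, known in neurons and endocrine cells, was at 1964, 5380 and 2666 and 46124, 4854, 51065, 14213 and 2692, with overlap. The neuron list summed to 23825 to 109338 normalised CPM in the low and 34046 to 159018 in the high libraries. miR-124, a defining neuronal miRNA, was not analysed here.

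Of 7 fibroblast and smooth muscle miRNAs listed, 3 were compared and 1, miR-143-3p, was lower. Counts in lists of so few members cannot be set apart from the shares over all miRNAs. The list summed to 12889 to 33267 in the low and 71524 to 146533 in the high libraries, without overlap. miR-143-3p made up the larger part of this sum in each high library. The gap thus largely repeats that 1 miRNA and does not speak for the list. miR-199b-3p, a fibroblast miRNA, overlapped (−0.85, SE 0.41), and miR-10b-5p reached at most 63.9 normalised CPM. Both astrocyte-associated miRNAs compared, miR-29a-3p and miR-29b-3p, were lower, and the list summed to 1198 to 1980 and 2497 to 6082. Of the microglia and leukocyte list, miR-155-5p was higher, at 2402, 4582 and 6309 normalised CPM in the low libraries against 1939, 781, 1599, 1275 and 639.7 in the high ones (1.85, SE 0.46). miR-146a-5p ranged from 153 to 7337 in the high libraries alone and overlapped, and the list summed to 5861 to 7567 and 915 to 9057. miR-200c-3p, an epithelial miRNA, was higher at 35.2, 29.6 and 87.0 against 9.26, 5.15, 0, 6.36 and 5.63. It rests on few reads, 24, 12 and 25 in the low libraries and 3, 22, 0, 3 and 23 in the high ones. miR-200a-3p overlapped, and the epithelial list summed to 44.4 to 606 and 6.36 to 55.6, with overlap. The serum and red cell list summed to 29.4 to 91.4 and 12.7 to 269, and miR-219-5p, of oligodendrocytes, had 0 reads in each low library and at most 0.979 normalised CPM in the high ones. The part of other cell types in the division was not tested.

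Further lists differed in part. Of 7 miRNAs known from injury and stress other than miR-21-5p, 1 was higher, miR-155-5p, and 1 lower, miR-22-3p (−1.61, SE 0.39), with 5 overlapping (median 0.66), which is near the shares of 17.3% and 26.3% over all miRNAs compared. Of 4 miRNAs induced by p53, a regulator of cell cycle arrest and apoptosis, 1 was lower, miR-194-5p (−1.60, SE 0.59), and 0 higher. miR-194-5p overlapped with total counts and without METH 2 or METH 3. Of the miR-23, miR-27 and miR-24 list, 3 were compared and miR-27a-3p (−2.67, SE 0.41) and miR-27b-3p (−1.74, SE 0.45) were lower. miR-27b-3p overlapped with total counts and without METH 2, METH 3 or PBS 4. Of the miR-99, miR-100 and miR-125 list, 2 of 5 were higher, both miR-125 members. miR-221-3p and miR-222-3p, which are raised in proliferating cells, overlapped at 1.18 (SE 0.42) and 0.64 (SE 0.45).

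The low libraries differed among themselves about as much as the high ones did. The median absolute log2 difference in normalised CPM (2 added) over the 179 miRNAs was 0.59 to 0.74 for the 3 pairs of low libraries and 0.29 to 0.95 for the 10 pairs of high ones. It was 1.14 to 1.78 for the 15 pairs of a low with a high library, each farther apart than any pair within a class. METH 3 lay 0.59 from PBS 3 and 0.74 from PBS 1, and between 1.59 and 1.78 from the other METH libraries. The closest pair of all was PBS 4 and METH 4 at 0.29, the deeply sequenced libraries, which carry different treatments. The miRNAs that varied most inside the low class included miR-34c-5p, a p53-induced miRNA, at 223, 19.8 and 80.0 normalised CPM, and miR-129-5p, a neuronal miRNA, at 4374, 2748 and 17794. Of the 124 miRNAs with at least 100 normalised CPM on average, 17 spanned at least 4-fold within the low class and 28 within the larger high class.

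Treatment is given by the labels and was not used to form the classes, so METH was tested against PBS with the class as a term. In edgeR's quasi-likelihood test with Benjamini-Hochberg adjustment, 0 of 179 miRNAs (0%) were called with the term and 0 of 179 (0%) without it. At an unadjusted p under 0.05 there were 4 and 0, and the smallest adjusted p was 0.863 and 0.993. DESeq2 called 0 with the term, with 5 at an unadjusted p under 0.05. The spread was narrower with the term, which was itself chosen on these libraries. The common dispersion was 0.277 with it and 0.628 without it, a coefficient of variation between libraries of 52.7% and 79.2%, and the standard error of the METH difference was smaller for 172 of 179 miRNAs. The median 95% interval reached 2.22-fold to either side with the term and 3.10-fold without it. Its bounds stayed inside a 4-fold change for 144 miRNAs with the term and 95 without, and inside a 2-fold change for 15 and 0.

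The 5 miRNAs with the smallest p in the fit with the class term did not pass the adjustment. novel_639 had a log2 METH minus PBS difference of 2.24 (SE 0.72), miR-122-5p, which liver cells make, −3.02 (SE 0.98), novel_375 −1.45 (SE 0.62) and novel_464 −1.11 (SE 0.54). miR-143-3p had −1.36 (SE 0.48). It averaged 97993 normalised CPM in the high PBS and 45952 in the high METH libraries, and 5423 in the low PBS libraries against 1476 in METH 3, so METH values lay below PBS values within each class. edgeR's adjusted p was 0.863 for the first 3 of these by p, novel_639, miR-122-5p and miR-143-3p. With the 5 high libraries alone, 0 of 137 miRNAs were called between METH and PBS, 2 had an unadjusted p under 0.05, and the smallest adjusted p was 0.975. The low class holds 2 PBS libraries and 1 METH library and was not tested alone.

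**Figure D5:**
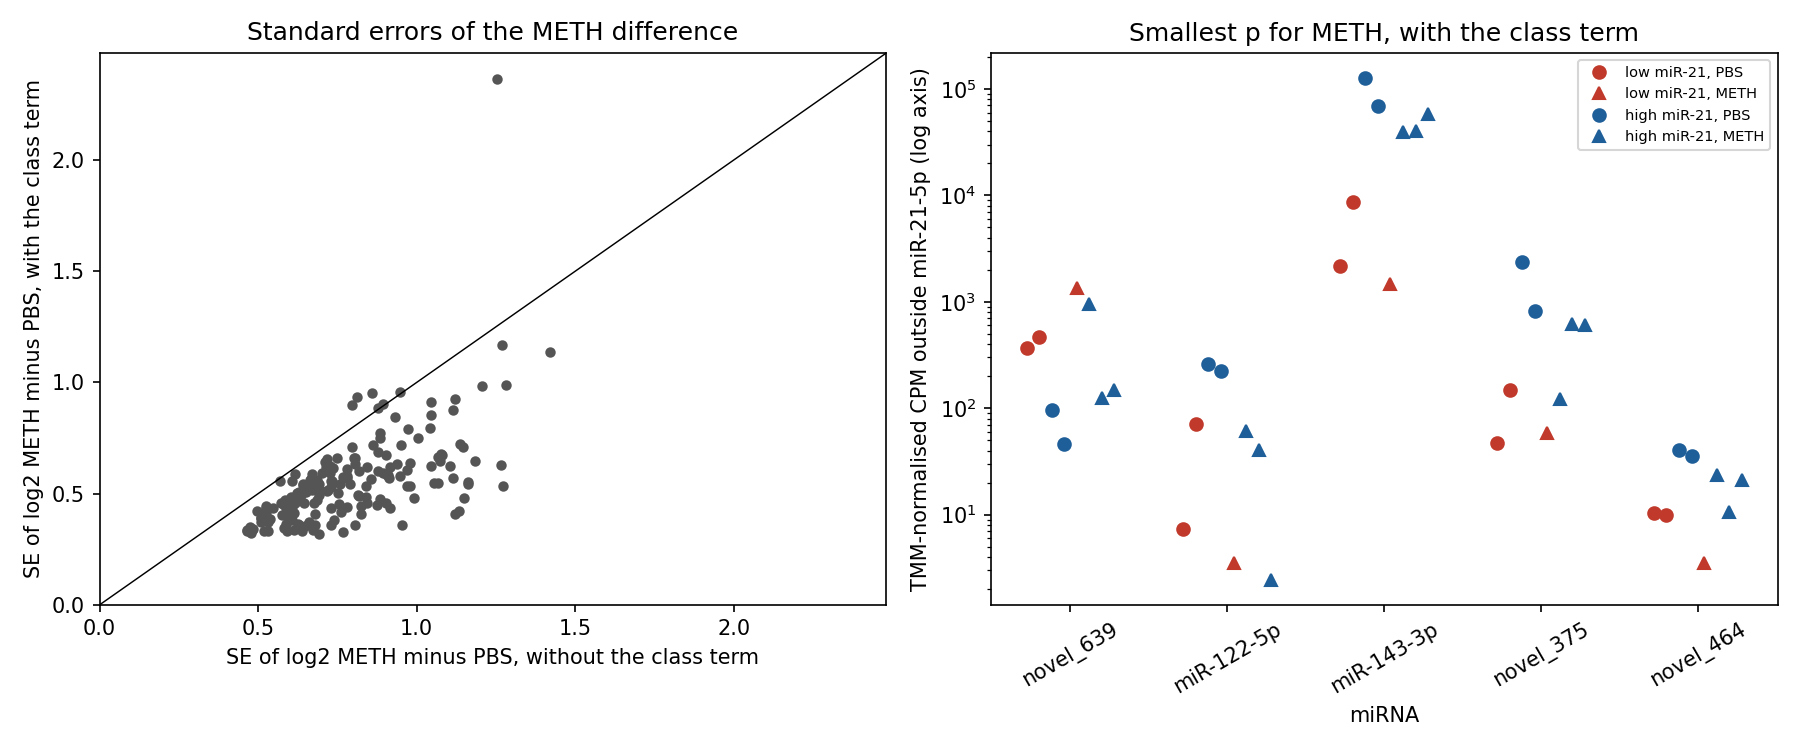
Left, standard error of the log2 METH minus PBS difference with the class term (vertical) against that without it (horizontal), 1 point per miRNA except miR-32-5p, with the line of equality. Right, normalised CPM (log axis) by library of the 5 miRNAs with the smallest p, red for low and blue for high miR-21 libraries, circles for PBS and triangles for METH. Most points on the left lie under the line, 172 of 179 with miR-32-5p counted. On the right, miR-143-3p differs more between red and blue than between circles and triangles.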

How the data were processed

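The authors deposited 1 table of read counts and TPM for 384 miRNAs in 8 libraries, per the file headers. Here the deposited TPM equals each count's share of its library, with no length term (largest relative difference 3.27e-09). The genome build, aligner, miRNA reference, prediction tool and treatment of multi-mapped reads are all not given in the sources used here.

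Classes were set by miR-21-5p TPM. That row was then left out, and the counts were fitted with edgeR 4.0.16 in R 4.3.3 (TMM, filterByExpr with minimum count 10 and total 15, glmQLFit, class and treatment as terms). A miRNA counted as lower or higher when the classes did not overlap and the fitted difference was at least 2-fold. METH was tested with glmQLFTest and Benjamini-Hochberg adjustment at 0.05. The fit was also run on simulated counts with a smaller dispersion than that of these data, so that run does not show how it behaves at their spread.

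Named miRNAs were miR-21-5p and novel_146, the 10 largest differences each way among those with no overlap at 100 CPM or more, the 10 most abundant, up to 6 members of each list and the 5 smallest METH p. miR-32-5p, miR-363-3p, miR-127-3p, miR-409-3p, miR-191-5p, miR-425-5p, miR-504 and novel_9 were added after their values were seen. The libraries, members and lists were chosen with earlier results of these data known. Neighbours came from the RefSeq annotation, in which 157 of 159 known names were found. Alternatives were DESeq2 1.42.0, other scalings and filters, a replicate block and leaving out libraries.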

Additional observations from a re-analysis of the deposited data

Results flagged for a closer look

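Total counts in PBS 4 (7334789) and METH 4 (6702946) lay far from those of the other 3 libraries of their treatment, past Dixon's 95% limit for a group of 4, which chance passes in about 1 of 20 groups. Both belong to the high miR-21 class, and the results without both are given with the effects of processing.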

How the results depend on the processing

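The count of miRNAs higher in every low library was 31 to 48 with single libraries left out, the most without PBS 3, and 10 with a 4-fold minimum. The descriptive edgeR count of 88 was 35 with the number in the title as a replicate block, 35 to 99 with single libraries left out (fewest without METH 3, most without PBS 3), 37 in the PBS libraries alone and 28 without METH 3 and both libraries numbered 4, which kept 2 low and 3 high libraries. The last 2 settings were chosen after seeing the data. The numbers were not taken as pairs, since the labels state no pairing. Same-numbered libraries correlated at −0.264, 0.501, 0.730 and 0.890 after centring on treatment means. The first value joins a low and a high library and the others join libraries of the same class. These values therefore cannot show whether the numbers are pairs. The log2 difference in total count was −1.41 outside miR-21-5p, −0.77 without both libraries numbered 4 and −2.46 to −1.58 with single libraries left out. METH called 1 miRNA of 383 with no filter and the class term, miR-122-5p (log2 −3.23, edgeR adjusted p = 0.00632), with 967 reads in PBS 4 and 10 in METH 4. miR-30b-5p turned to 0.10 without METH 3 and both libraries numbered 4. The cause of these changes was not tested. Of the other recomputed differences of named miRNAs, 1481 moved by less than 1 SE and 143 by more. A change of sign was flagged only for miRNAs counted as lower or higher. Among the rest some crossed 0, such as miR-222-3p, at 0.64 with all libraries and −0.17 without METH 3. The low libraries held 321397 to 486429 counts outside miR-21-5p, so 3 counts there are 4.40 to 10.4 normalised CPM. By counting error alone, 0 reads in a single low library allow levels up to about that.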
